A study of Homo sapiens with 4 samples.

Results

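Clustered histone genes are the genes whose symbols start with HIST1H, HIST2H, HIST3H or HIST4H in the gene table of A549 cells, a human lung adenocarcinoma line, with symbols that mark pseudogenes by a final PS left out. The table listed 28283 genes, and 66 of them were clustered histone genes, under 65 symbols, since HIST1H3D stood in it under 2 gene identifiers. A further 4 symbols ended in PS or PS and a digit, and 3 of the 66 genes, HIST3H2BA, HIST2H2BC and HIST2H2BB, were pseudogenes by the table's own annotation. The cells carried a control vector (shNC) or a lentiviral shRNA against YTHDF2 (shY2-2), a reader protein of N6-methyladenosine (m6A), both stably. For each condition, fragmented poly(A) RNA was sequenced as it was (input, 1 library) and after pull-down with an antibody to m6A (IP, 1 library), so that no difference between conditions has a replicate check and none could be tested.

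The clustered histone genes encode the histones that package newly made DNA, H2A, H2B, H3 and H4 of the nucleosome core and the linker histone H1, and most of them have no intron. Their messages accumulate in S phase and are the known exception among mRNAs in that they usually end in a short stem-loop, held by the stem-loop binding protein SLBP, and not in a poly(A) tail. Some of these genes also give longer or spliced transcripts that end at a poly(A) signal. The libraries were made from RNA selected by its poly(A) tail, so the values below describe RNA that was caught by oligo(dT), and fewer cells that hold such RNA cannot be told apart from less of it per cell.

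Of the 66 genes, 60 were found by their identifier in GENCODE release 44 on GRCh38, the reference used here for transcript structure. The stem-loop was searched in the 150 nt after the stop codon with a pattern of 16 bases, and 58 of these 60 genes held it, 22 to 62 nt after the stop codon with a median of 35 nt. The exceptions were HIST3H2BA and 1 of the HIST1H3D entries. The stem-loops of the most highly listed genes, and of HIST2H4B, which had the lowest ratio between the libraries, are shown as the feature that ends the usual histone message, with the stem-loop in capitals and 5 flanking bases on each side.
HIST1H2BK, chr6:27146361-27146386, minus strand: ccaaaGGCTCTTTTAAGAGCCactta
HIST1H1C, chr6:26055739-26055764, minus strand: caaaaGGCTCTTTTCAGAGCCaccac
HIST1H2BD, chr6:26158582-26158607, plus strand: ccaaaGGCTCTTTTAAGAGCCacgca
HIST2H2AC, chr1:149887386-149887411, plus strand: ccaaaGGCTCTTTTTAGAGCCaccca
HIST3H2A, chr1:228457364-228457389, minus strand: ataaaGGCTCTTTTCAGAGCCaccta
HIST1H4J, chr6:27824454-27824479, plus strand: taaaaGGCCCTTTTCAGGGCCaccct
HIST2H4B, chr1:149860764-149860789, minus strand: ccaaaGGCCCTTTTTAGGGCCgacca
The stem-loop printed for HIST1H1C was the most frequent form and was held by 34 genes, and the form of HIST1H4J was held by 9.

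The gene models of the deposited table decided which part of a histone message was measured. Set against the stem-loop, 28 of the 58 models ended before its last base, 5 ended within 100 nt past it, and 25 ran further. Of the 25 long models, 16 had a poly(A) signal (AATAAA or ATTAAA) in their last 40 nt, and 0 of the 28 short models did. By definition the short models hold no bases past the stem-loop, and that of HIST1H2BK ends at the stop codon. The count of 0 was thus largely set by where these models end. Shared sequence adds another limit, since 9 of the 65 genes with a sequence shared at least 90% of their 100-mers with another clustered histone gene, and 46 shared under 10%. Among the 9, an entry of HIST1H3D shared 96.0% with the other entry of that symbol, which overlaps it on the same strand and is not a copy elsewhere. How reads were divided between such genes was not given in the sources used here.

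The RNAi target was lower in the knockdown, as YTHDF2 was 3.56 FPKM in the shNC input and 1.02 FPKM in the shY2-2 input (log2 ratio -1.18). The epithelial keratins KRT7, KRT8 and KRT18 lay between 281 and 649 FPKM, whereas PTPRC, CD3E, PECAM1, VWF and COL1A2 were each under 1 FPKM in both inputs and COL1A1 was at 0.83 FPKM in shNC and 1.64 FPKM in shY2-2. The epithelial genes CDH1 and EPCAM were at 9.99 and 2.02 FPKM in shNC and at 5.28 and 1.20 FPKM in shY2-2. KRT19, a further epithelial keratin, was at 25.9 FPKM in shNC and 12.9 FPKM in shY2-2. KRT7, KRT8 and KRT18 were also listed lower in shY2-2. The fragments behind an FPKM value are unknown, and no interval or detection limit can be given.

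Most clustered histone genes were low. FPKM is a value per exon length and per mapped fragments of the library, so that levels of different genes can be set side by side. Of the 66 genes, 33 (50.0%) reached an FPKM of 1 in at least 1 input library and were kept, beside 43.4% of all 28283 genes. An FPKM of 1 was reached by 27 genes in shNC, by 29 in shY2-2 and by 23 in both, and only 2 genes reached an FPKM of 10. The median over all 66 genes was 0.67 FPKM in shNC and 0.82 FPKM in shY2-2. The summed level was close in the libraries, at 162.2 FPKM in shNC and 160.3 FPKM in shY2-2.

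HIST1H2BK (chr6:27146418-27146798, minus strand), an H2B gene, was the most highly listed, at 50.5 FPKM in shNC and 43.6 FPKM in shY2-2. It held 31.2% of the summed level of the clustered histone genes in shNC and 27.2% in shY2-2. HIST1H1C (chr6:26055787-26056428, minus strand), which encodes linker histone H1.2, came next at 18.6 and 14.3 FPKM in the same order. Both genes were lower in shY2-2, and the models of both ended before the stem-loop. HIST1H2BD (chr6:26158146-26171349, plus strand), an H2B gene with a second exon far past its stem-loop, followed at 9.87 FPKM in shNC and 8.85 FPKM in shY2-2. These 3 genes held 48.7% of the summed level in shNC and 41.6% in shY2-2.

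The next 9 genes by mean level were mostly H2A genes. HIST2H2AC was at 7.25 FPKM in shNC and 9.66 FPKM in shY2-2. The pair HIST2H2AA3 and HIST2H2AA4, which share at least 96.8% of their 100-mers with another clustered gene, stood at 6.79 and 6.81 FPKM in shNC and at 6.97 and 6.96 FPKM in shY2-2. HIST3H2A was at 4.91 and 6.12 FPKM. These 4 H2A genes were all listed higher in shY2-2, the near-identical pair by the smallest margin. HIST2H2BC, annotated as a pseudogene, was at 5.31 FPKM in shNC and 5.06 FPKM in shY2-2. HIST1H4J, an H4 gene with 90.7% of its 100-mers in another gene, was at 4.44 and 5.02 FPKM. HIST1H2AM was at 3.60 and 4.93 FPKM and overlaps an exon of HIST1H3J on the same strand. HIST1H2AC was at 3.59 FPKM in shNC and 4.33 FPKM in shY2-2, and HIST1H2BL at 3.87 and 3.66 FPKM. The order of the first 3 genes was the same in shNC as in the mean, while HIST2H2AC stood above HIST1H2BD in shY2-2. Without replicates it cannot be said which neighbours in this order differ.

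**Figure D1:**
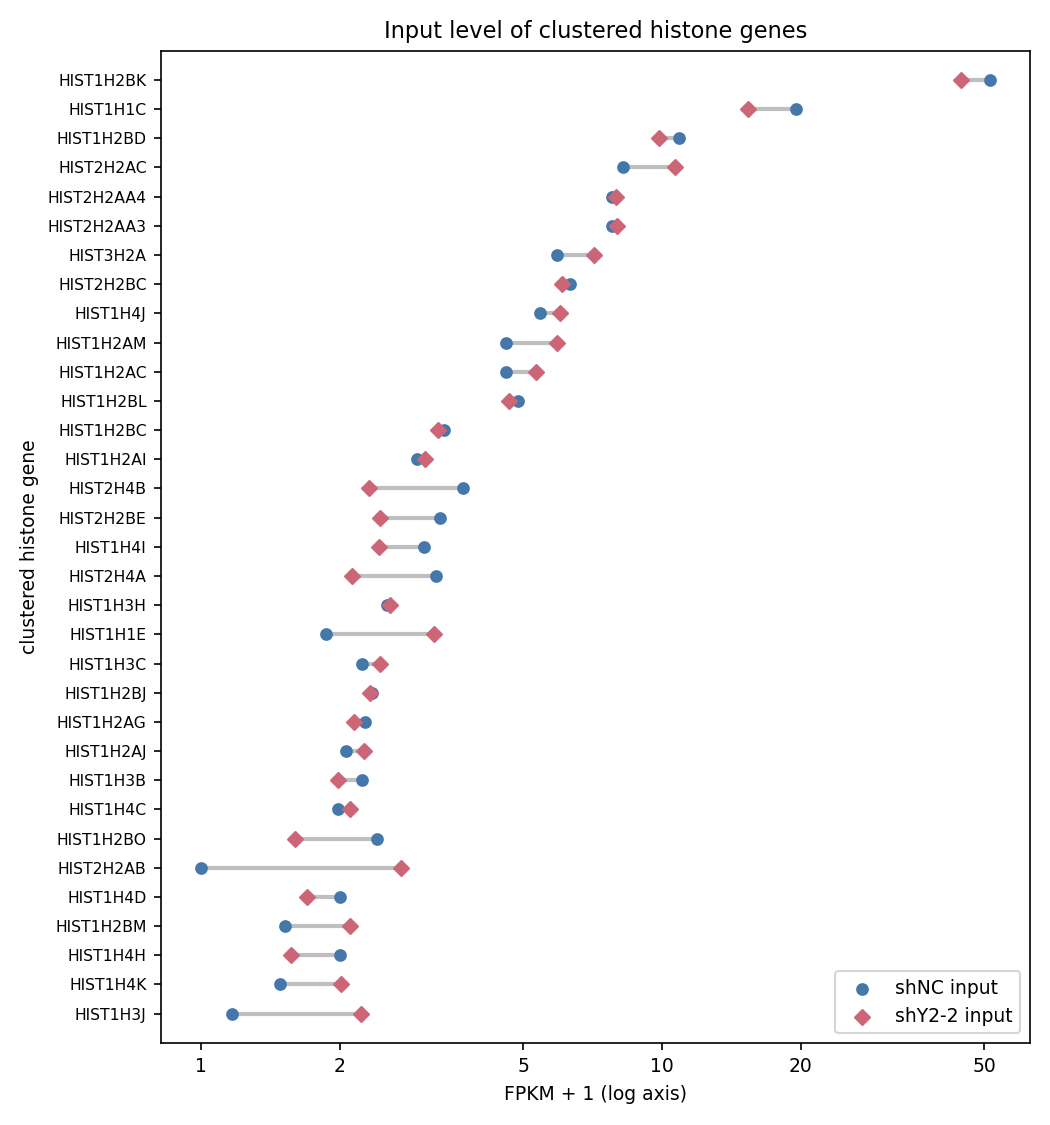
FPKM + 1 on a log axis of the 33 clustered histone genes kept, in order of mean FPKM; circles are the shNC input and diamonds the shY2-2 input, 1 library each, and grey lines join them. HIST1H2BK and HIST1H1C stand apart from the others at the top, and HIST2H2AB, listed at 0 in shNC, has the widest gap.

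The first comparison asked how the level of these genes differed between the knockdown and the control. The change was taken as log2((FPKM shY2-2 + 1)/(FPKM shNC + 1)), a scale that understates changes of low genes. Of the 33 genes kept, 1 had a ratio above 1 and 0 had a ratio below -1, beside 0.986% and 2.14% of the 12268 genes kept overall. Among kept genes of spliced length up to 1000 nt, which are nearer in size to histone genes, 2.12% were above 1 and 3.67% below -1. Of these 33 genes, 6 were kept through shY2-2 alone and 4 through shNC alone, which fixed the direction of their ratios. The median log2 ratio was 0.02 over the 33 genes, 0.002 over all genes kept and 0.10 over short genes, and 17 histone genes had a ratio above 0 against 16 below, beside 6166 of 12268 genes kept and 712 of 1226 short genes above 0. The 25th and 75th percentiles of the kept histone genes were -0.21 and 0.22, beside -0.26 and 0.24 for all genes.

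The gene above the limit was HIST2H2AB, an H2A gene listed at 0 in shNC and at 1.71 FPKM in shY2-2 (log2 ratio 1.44, which rests on the pseudocount). Over the whole table, 6 genes were listed at 0 in shNC and at 1 FPKM or more in shY2-2, and 8 genes the other way round. HIST2H2AB shares exon sequence on the opposite strand with BOLA1, which was at 4.08 FPKM in shNC and 5.49 FPKM in shY2-2. The libraries were strand-specific, but whether strand was used in counting was not given in the sources used here, and the part of BOLA1 in the HIST2H2AB value was not tested.

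Nearest below the limit were HIST1H3J, an H3 gene, and HIST1H1E, which encodes linker histone H1.4. HIST1H3J was at 0.17 FPKM in shNC and 1.23 FPKM in shY2-2 (log2 ratio 0.93). HIST1H1E was at 0.87 FPKM in shNC and 2.20 FPKM in shY2-2 (log2 ratio 0.78). Smaller differences in the same direction were listed for HIST1H2BM (log2 ratio 0.47), HIST1H4K (0.44) and HIST2H2AC (0.37). HIST1H3J and HIST1H4K were among the genes that share sequence, with 58.4% and 91.3% of their 100-mers in another clustered gene. For HIST1H3J that gene is HIST1H2AM, which overlaps it on the same strand.

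On the other side, the lowest ratio was that of HIST2H4B, at 2.70 FPKM in shNC and 1.31 FPKM in shY2-2 (log2 ratio -0.68). Its copy HIST2H4A was at 2.23 FPKM in shNC and 1.13 FPKM in shY2-2 (log2 ratio -0.60), and 100% of its 100-mers occur in another clustered gene, so these values are not independent of each other. HIST1H2BO was at 1.41 and 0.60 FPKM (log2 ratio -0.59), and HIST2H2BE at 2.30 and 1.45 FPKM (log2 ratio -0.43). HIST1H4H and HIST1H1C both had a log2 ratio of -0.35. Of the 12 genes with the most extreme ratios, HIST1H1C alone was above 10 FPKM.

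By class, the 10 kept H2A genes had a median log2 ratio of 0.17, and 9 of them were above 0, with HIST1H2AG (-0.08) as the exception. HIST2H2AB was kept through shY2-2 alone, which fixed its sign. The 9 H2A genes at 1 FPKM or more in both inputs had a median of 0.13, with 8 above 0 and 1 below. Those 8 include the near-identical pair HIST2H2AA3 and HIST2H2AA4. The 9 kept H2B genes had a median of -0.06, and 8 of them were below 0, with HIST1H2BM as the exception. The filter fixed the sign of HIST1H2BM, kept through shY2-2 alone, and of HIST1H2BO, kept through shNC alone. The 7 H2B genes at 1 FPKM or more in both inputs were all below 0. The 8 kept H4 genes had a median of -0.28, with 3 above 0 and 5 below, and this median turned to 0.15 for the gene that reached 5 FPKM, HIST1H4J, and to 0.02 with every H4 gene above 0 FPKM. Of these 8, 2 were kept through shY2-2 alone and 2 through shNC alone, which fixed the signs of their ratios. The 4 H4 genes at 1 FPKM or more in both inputs had a median of -0.46, with 1 above 0 and 3 below. Among those 3 were the copies HIST2H4A and HIST2H4B, whose values are not independent. The 4 kept H3 genes had a median of 0.07, and the 2 kept H1 genes, HIST1H1C and HIST1H1E, lay on either side of 0. HIST1H3J and HIST1H1E were kept through shY2-2 alone and 1 H3 gene through shNC alone, which fixed the signs of their ratios. Only 2 H3 genes and 1 H1 gene reached 1 FPKM in both inputs. By cluster, the 24 kept HIST1 genes had a median ratio within 0.01 of 0 and the 8 kept HIST2 genes one of -0.02. The summed H2A level was 39.2 FPKM in shNC and 47.8 FPKM in shY2-2, and the summed H2B level 79.5 and 70.6 FPKM. Classes were set side by side with no test, and they differ also in level and shared sequence: the 22 kept genes that share under 10% of their 100-mers had a median of -0.06, and the 11 that share more had one of 0.13.

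By the end of the gene model, the 13 kept genes whose model ended before the end of the stem-loop had a median log2 ratio of 0.37. All 6 genes kept through shY2-2 alone were among them, and the filter itself gave these 6 a ratio above 0. The 5 of the 13 that reached 1 FPKM in both inputs had a median of 0.13, with 3 above 0 and 2 below, and the most highly listed of them, HIST1H2BK and HIST1H1C, were below 0. Of the 12 kept genes with a model that ran over 100 nt past the stem-loop, 11 reached 1 FPKM in both inputs and had a median of -0.08, with 3 above 0 and 8 below. The 3 kept genes that ended within 100 nt of it lay between -0.06 and 0.15. Genes annotated with 1 exon had a median of 0.07 (20 genes), and those with several exons a median of -0.09 (8 genes). The part of the model's end in the ratios of single genes was not tested.

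Other genes of histone supply are given for context. The shares to set beside the counts of each list are those of all 12268 genes kept, 0.986% above 1 and 2.14% below -1. Of the 11 kept genes for histones outside the clusters, most of them variants whose supply is not tied to DNA replication, 1 had a ratio above 1 and 0 a ratio below -1. That gene, H1F0 for linker histone H1.0, was at 67.6 FPKM in shNC and 138.6 FPKM in shY2-2 (log2 ratio 1.03). H2AFZ, the gene of variant H2A.Z, was at 73.8 and 91.7 FPKM, and H2AFY of macroH2A had the lowest ratio (-0.31). The median of these 11 genes was 0.29, and their median level over the 12 in the table was 28.7 FPKM in shNC and 35.2 FPKM in shY2-2, against 0.67 and 0.82 FPKM for the clustered genes.

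None of the 26 kept genes for synthesis and 3′ end processing of histone mRNA passed the limit in either direction (median log2 ratio 0.09). SNRPB and SNRPG, Sm proteins of the U7 and spliceosomal particles, were at 279.6 and 75.6 FPKM in shNC and at 406.9 and 93.3 FPKM in shY2-2. CASP8AP2, which acts at histone locus bodies, had the lowest ratio of the list (-0.88). SLBP, chosen here after its values were seen, was at 29.3 FPKM in shNC and 24.8 FPKM in shY2-2 (log2 ratio -0.23). The 21 genes of histone mRNA decay also held 0 genes past the limit (median -0.14). Their most highly listed genes, LSM4 and LSM2, belong to Lsm rings and had ratios of 0.36 and 0.28, EXOSC3 of the exosome had the highest ratio (0.79), and PNRC2 the lowest (-0.82).

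Of the 20 genes listed as histone chaperones, 0 were above 1 and 1 was below -1, with a median of 0.24. That gene was FAM111A, which encodes a protease that acts at replication forks and is not itself a chaperone (3.05 FPKM in shNC and 0.82 FPKM in shY2-2). SSRP1 and SUPT16H, the FACT subunits, had log2 ratios of -0.03 and -0.31, and IPO4, a histone importer, had 0.81. Of 28 S phase and proliferation genes, 1 was above 1 and 0 were below -1, with a median of 0.27. The gene above was CCNE1, cyclin E1, at 12.1 FPKM in shNC and 39.0 FPKM in shY2-2. PCNA, the replication clamp, was at 232.7 and 288.3 FPKM, TOP2A at 122.1 and 97.4 FPKM, and POLA1 had the lowest ratio (-0.69). Of the 28 genes, 21 had a ratio above 0, and this list was not tested against the clustered histone genes.

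**Figure D2:**
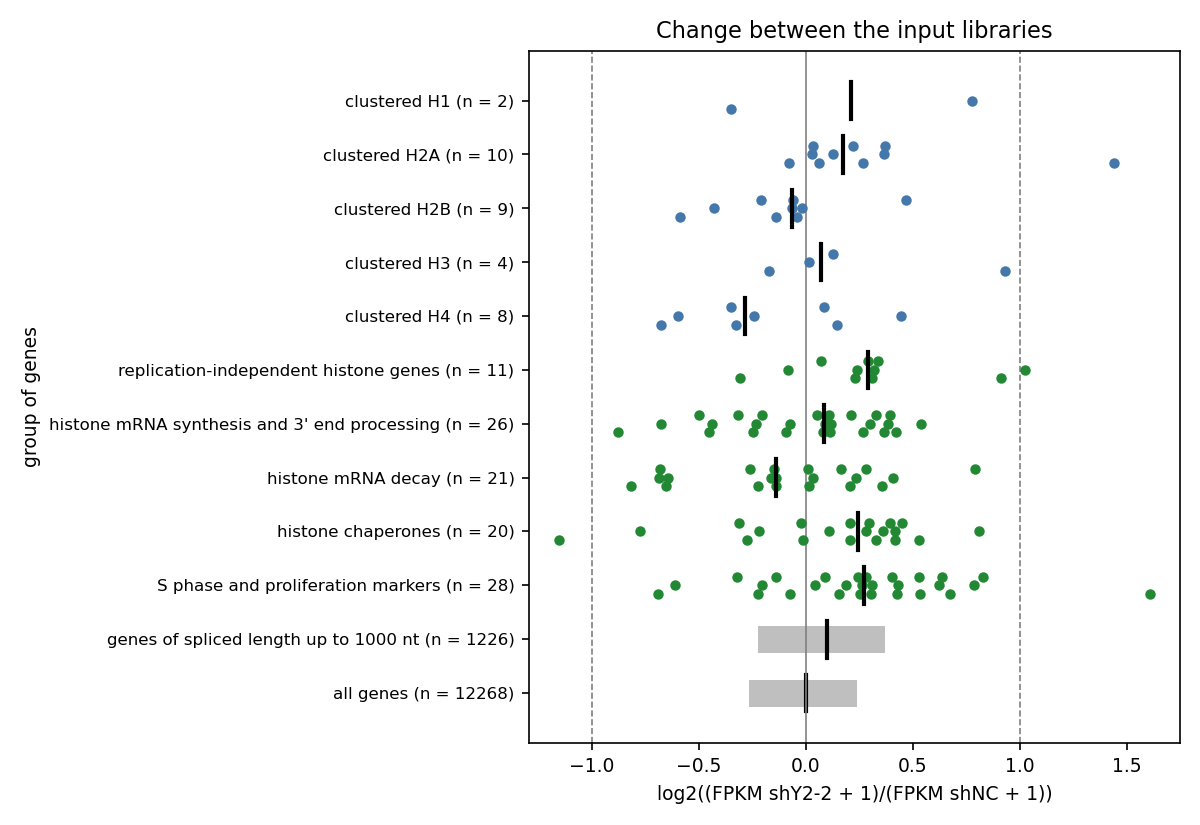
Log2 ratio of shY2-2 over shNC input FPKM, with 1 added, of the kept clustered histone genes by class (blue) and of the related lists (green), 1 point per gene with the median as a black line; grey bars run from the 25th to the 75th percentile of all kept genes and of kept short genes, and dashed lines mark -1 and 1. HIST2H2AB at 1.44 is the only clustered gene beyond a dashed line.

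The second comparison concerned m6A peaks, regions of transcripts where exomePeak found more reads in the IP than in the input of the same condition. Of the 66 genes, 9 had a peak in the shNC list and 14 had a peak in the shY2-2 list, with 10 and 14 peaks. Every gene with a peak in shNC also had a peak in shY2-2, 5 genes had a peak in shY2-2 alone, and 52 had a peak in neither list. Over all 28283 genes, 11789 had a peak in shNC, 11737 in shY2-2 and 10028 in both, so genes with a peak in 1 list alone were found for each list. Among the 33 genes kept, 7 (21.2%) had a peak in shNC, 11 (33.3%) in shY2-2 and 7 (21.2%) in both. Over all genes kept, the shares were 81.2%, 78.4% and 72.7%. Over kept genes of spliced length up to 1000 nt they were 39.9%, 39.2% and 30.8%. Among kept genes of mean FPKM under 10, added as a comparison after the data were seen, 76.4% had a peak in shNC and 72.9% in shY2-2, beside 5 (16.1%) and 9 (29.0%) of the 31 such histone genes. The histone shares were nearer to those of short genes than to those of all genes, and no difference between these shares was tested.

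A false discovery rate (FDR) of at most 0.05 was reached by 4 of 10 peaks in shNC and 5 of 14 in shY2-2, against 56.4% and 52.1% of all peaks. Only the peaks of HIST1H1C and HIST1H2BK reached an FDR of at most 0.001, in both lists. HIST1H2BK had an FDR of 1.2e-07 in shNC and 5.01e-18 in shY2-2, with fold enrichments of 1.53 and 1.92. Its peak covered 206 nt in shNC and all 381 nt of the model in shY2-2. HIST1H1C had an FDR of 4.17e-07 and a fold enrichment of 4.58 in shNC, and an FDR of 0.00011 and a fold enrichment of 2.70 in shY2-2. HIST1H2BJ, with a peak over 2 exons, also had an FDR of at most 0.05 in both lists, at fold enrichments of 4.32 and 4.39.

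The median fold enrichment was 2.98 in shNC and 2.97 in shY2-2, beside 2.17 and 2.26 over all peaks. The largest values belonged to genes with hardly any RNA in the input. HIST1H2BE, at 0.22 FPKM in shNC and 0.34 FPKM in shY2-2, had fold enrichments of 9.92 and 8.09. HIST3H2BB, at 0.18 and 0.28 FPKM, had fold enrichments of 7.63 and 6.94. HIST1H2AE, listed at 0 in shNC and at 0.08 FPKM in shY2-2, had a fold enrichment of 6.94 in shY2-2. The FDR of these 5 peaks lay between 0.050 and 0.98. The same p-value, FDR and fold enrichment as for HIST3H2BB and HIST1H2AE in shY2-2 was given to 866 peaks of that list, and the values of HIST1H2BE were shared by 152 peaks in shNC and 415 in shY2-2. Over all peaks, the median fold enrichment in shNC was 3.56 for genes of mean FPKM under 1, 2.23 for genes of 1 to 10 FPKM and 1.84 for genes of at least 10 FPKM, and in shY2-2 it was 4.34, 2.28 and 1.87.

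**Figure D3:**
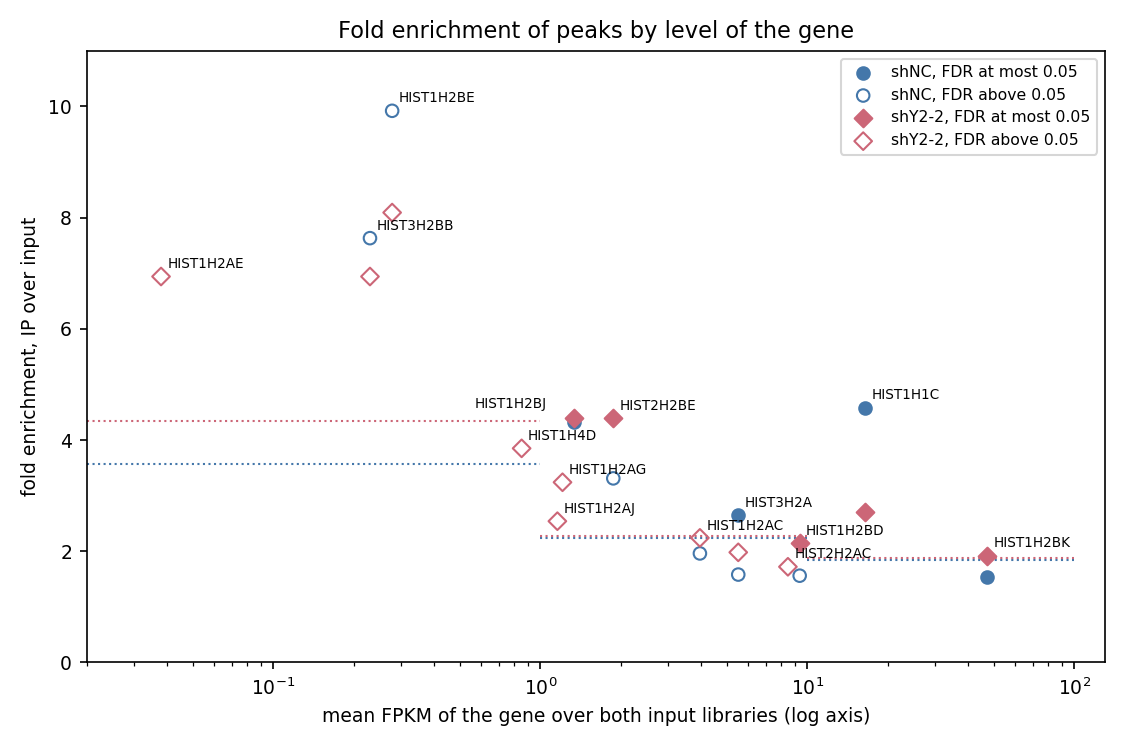
Fold enrichment of IP over input for the 24 peaks in clustered histone genes against the mean FPKM of the gene on a log axis; filled symbols have an FDR of at most 0.05, and dotted lines are the medians over all peaks of genes with mean FPKM under 1, from 1 to 10 and at least 10. The largest fold enrichments, from 6.94 to 9.92, lie at the left with open symbols.

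Of the 10 shNC peaks, 9 overlapped a shY2-2 peak on the same strand by at least 1 nt, beside 55.9% of all shNC peaks, and the exception was a peak at the 5′ end of HIST3H2A. In the other direction it was 9 of 14, beside 65.4% of all shY2-2 peaks. Of the 9 overlapping pairs, the fold enrichment was higher in shY2-2 in 5 and higher in shNC in 4. The pairs higher in shY2-2 were those of HIST1H2BK, HIST1H2BD (1.56 and 2.15), HIST2H2BE (3.31 and 4.39), HIST1H2AC (1.96 and 2.24) and HIST1H2BJ. HIST3H2A, at 2.65 in shNC and 1.98 in shY2-2, was among those higher in shNC. The shY2-2 peak was the longer in 7 pairs, the shNC peak in 1, and the HIST1H2AC peaks of 209 nt had the same position. Among the 7 were HIST3H2BB (60 nt in shNC and 570 nt in shY2-2) and HIST1H2BE (209 and 476 nt). Their shY2-2 peaks had an FDR of 0.98 and 0.60. Over all peaks the median length was 270 nt in both lists, and lengths of all overlapping pairs were not compared.

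The 5 genes with a peak in shY2-2 alone were HIST1H2AE, HIST1H4D (fold enrichment 3.85), HIST1H2AG (3.24), HIST1H2AJ (2.54) and HIST2H2AC (1.72). Apart from the H4 gene HIST1H4D, all encode H2A. None of these 5 peaks had an FDR of at most 0.05, the lowest being 0.12 for HIST2H2AC. HIST2H2AC, HIST1H2AJ and HIST1H2AE were also listed at higher FPKM in shY2-2, and HIST1H2AG and HIST1H4D at lower FPKM. With 1 IP library per condition, a peak in 1 list alone does not show that methylation differed.

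By the midpoint of the peak, 5 of the 10 shNC peaks lay before the stem-loop and 5 past it, and in shY2-2 the counts were 10 and 4. Coding bases were held by 7 of the 10 peaks in shNC and 9 of the 14 in shY2-2. The models of HIST1H2BK, HIST1H1C, HIST2H2AC, HIST1H4D and HIST1H2AJ stop short of the stem-loop, so their peaks could lie only before it. Genes with such a model and a peak numbered 2 in shNC and 5 in shY2-2. A part of the counts before the stem-loop was thus fixed by the models, and a larger one in shY2-2. Peaks with bases past the stem-loop numbered 5 in shNC and 7 in shY2-2, in transcripts that run beyond the usual histone end. The HIST1H2AC peak (chr6:26138610-26138818, plus strand) had its midpoint 14045 nt past the stem-loop in genomic distance, in a 3′ exon. The HIST3H2BB peaks lay 1065 and 1080 nt past the stem-loop, and the HIST1H2AG peak 756 nt past it. The HIST1H2BE peaks lay 11780 and 11913 nt before it, in a 5′ exon with no coding bases. The whole stem-loop was inside 2 peaks in shNC and 3 in shY2-2.

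**Figure D4:**
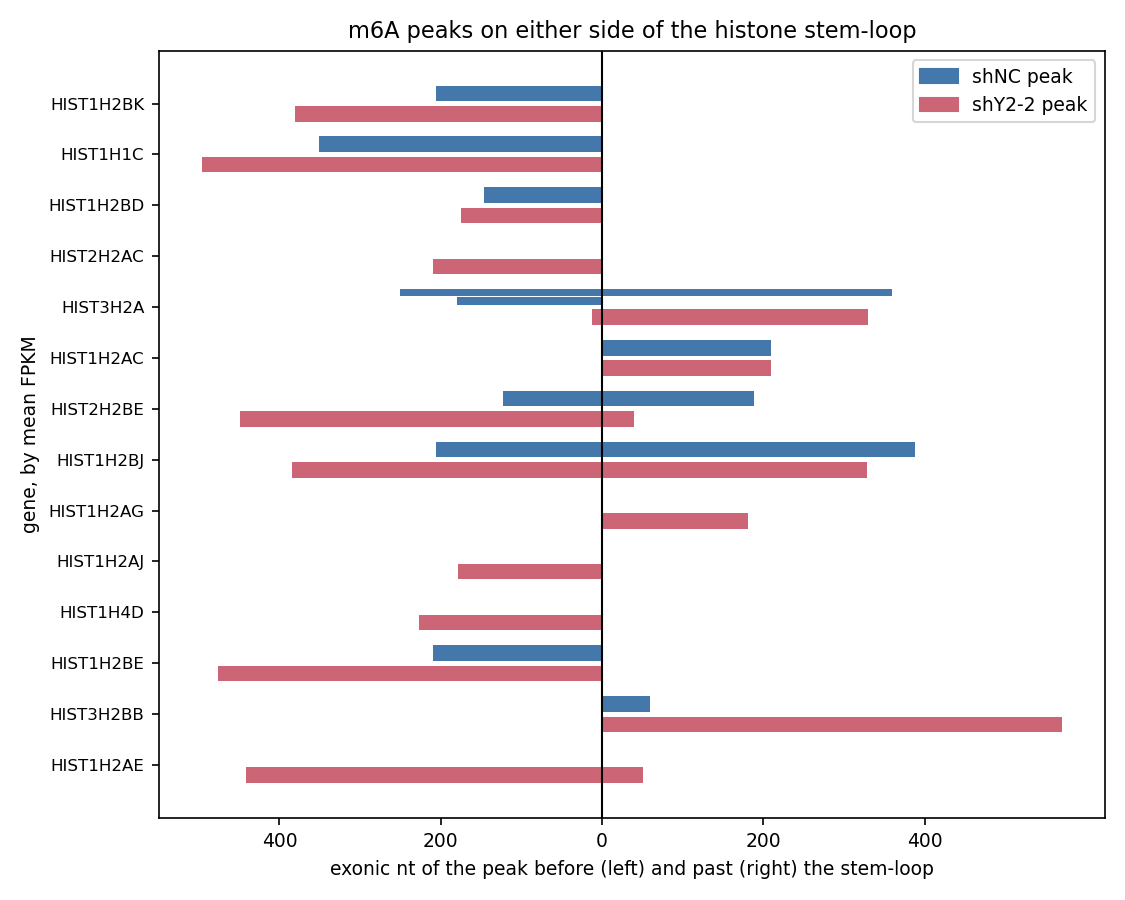
Exonic bases of each m6A peak that lie before (left) and past (right) the histone stem-loop, for the 14 clustered histone genes with a peak, in order of mean FPKM; blue bars are shNC peaks and red bars shY2-2 peaks, and introns and the distance to the stem-loop are not drawn. HIST1H2BK, HIST1H1C, HIST1H2BD, HIST2H2AC, HIST1H2AJ, HIST1H4D and HIST1H2BE have bases on the left alone, and HIST1H2AC, HIST1H2AG and HIST3H2BB on the right alone.

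The m6A mark is often found in a sequence context whose core is GGAC. This core, searched on the transcribed strand of the spliced peak, was present in 5 of 10 peaks in shNC (50.0%) and 8 of 14 in shY2-2 (57.1%). Among all peaks with an exonic length near 277 nt, the shares were 64.0% and 63.8%. Lengths were not matched within a list. The histone peaks ran from 60 to 627 nt in shNC (median 209 nt) and from 175 to 713 nt in shY2-2 (median 369.5 nt). GGACT, which contains GGAC, was in 2 peaks in shNC and 1 in shY2-2 (20% and 7.14%), beside 26.8% and 26.5%. Per kilobase, the histone peaks held 2.06 and 1.73 GGAC and the peaks near 277 nt 4.15 and 4.12. The GC content of the histone peaks was 54.8% in shNC and 55.8% in shY2-2, beside 48.5% and 49.3%. The GGAC sites of peaks called in both lists are shown with 8 bases on each side and GGAC in capitals, since they are the positions of this core that recurred.
HIST1H2BK, chr6:27146713-27146732, minus strand: cagaagaaGGACggcaagaa
HIST1H2BD, chr6:26158236-26158255, plus strand: cagaagaaGGACgggaagaa
HIST2H2BE, chr1:149886238-149886257, minus strand: ccctgccgGGACctggcgct
HIST3H2A, chr1:228457382-228457401, minus strand: cctttgatGGACataaaggc
HIST3H2A, chr1:228457229-228457248, minus strand: gaccctggGGACtgattggg
The sites of HIST1H2BK and HIST1H2BD lie in the coding sequence of H2B and differ in 1 of the 20 bases shown. Of the HIST3H2A sites, the first lies just before the stem-loop and the second, a GGACT, past it. No GGAC was found in the peaks of HIST1H1C or HIST1H2AC in either list, which says only that these letters are not in these windows.

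The last comparison set the change in level against the presence of a peak. The 7 kept genes with a peak in both lists had a median log2 ratio of -0.14, from -0.43 to 0.27, with 2 above 0 and 5 below. The 4 kept genes with a peak in shY2-2 alone had a median of 0.03. The 22 kept genes with a peak in neither list had a median of 0.03, from -0.68 to 1.44, with 13 above 0 and 9 below. All 6 genes kept through shY2-2 alone were among these 22, and the filter itself gave those 6 a ratio above 0. Of the 4 kept through shNC alone, all but HIST1H4D were among them, with ratios fixed below 0. With 1 FPKM required in both inputs, the median was 0.016 for genes with no peak and -0.14 for genes with a peak in both lists. The range of the genes with peaks lay inside that of the genes without. The genes with a peak in both lists were also the more highly listed, with a median of 3.59 FPKM in shNC over all 9 such genes, against 0.42 FPKM over the 52 genes with no peak, and the part of level in these values was not tested.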

How the data were processed

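A549 cells with a control vector or an shRNA against YTHDF2 gave 1 input and 1 IP library each. Per the labels, poly(A) RNA was selected with oligo(dT) and fragmented. The authors aligned the reads with HISAT2 at default settings to GRCh38 and computed the deposited FPKM of each gene from the input libraries with StringTie. The authors called peaks with exomePeak, which gave each peak a deposited fold enrichment, which is a ratio of the IP to the input on a linear scale, the deposited p-value and the deposited log10 scores of p-value and FDR. ChIPseeker placed the peaks in genes. Tool versions and the annotation release they used are not given in the sources used here.

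The deposited table also names no number of fragments, so the depth behind a value is unknown. Conditions were taken from the labels. Log2 ratios used a pseudocount of 1, over genes that reached 1 FPKM in either input. No test was run between conditions. Peaks that repeated a position were counted once, which left 31057 of 31091 peaks in shNC and 27344 of 27355 in shY2-2, and they were joined to genes by gene identifier. Transcript structure and sequences came from GENCODE release 44 on GRCh38, where 7 of 60 matched genes had the same span as in the deposited table. HIST2H2AA3, HIST2H2AA4, HIST2H2BC, HIST2H2BB, HIST1H3B and HIST1H3C were not matched. Shared sequence was the share of a gene's 100-mers found in another clustered histone gene, from the genomic span where no reference transcript matched. The stem-loop pattern was widened at the last base of its loop after H4 sequences had been seen, and the narrower form found 54 genes. The peaks compared for GGAC, GGACT and GC content were within 20% of the median exonic length of the histone peaks, 277 nt, and left out mitochondrial peaks.

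The genes and lists were chosen with earlier results of these data known. The genes named were the 12 of highest mean FPKM, the 6 highest and 6 lowest ratios among kept genes, the genes of the 8 peaks of highest fold enrichment in each list, those with a peak in 1 list alone, and from each related list the 2 most highly listed and the extremes of the ratio. Genes outside this rule are named where a count needs them. Of the marker genes of other cell types, 1 is not reported here. Alternatives were other pseudocounts, filters, centring, limits, peak thresholds and overlap rules. The log2 ratio, the overlap of peaks and the stem-loop search were tested on simulated data, and the other steps were not. Computations used pysam 0.24.0, SciPy 1.17.1, matplotlib 3.10.9, pandas 2.3.3 and NumPy 2.4.6 under Python 3.11.15.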

Additional observations from a re-analysis of the deposited data

How the results depend on the processing

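Of 112 recomputed values, 7 of them added after the data were seen, 67 stayed within the tolerance, which was 1.5 times for counts and fold enrichment, 0.1 for a median log2 ratio with no change of sign, and the 95% Wilson interval for shares of peaks. The count of histone genes with a ratio above 1 was 3 with a pseudocount of 0.1, 2 with 0.5, 0 with an FPKM of at least 5, 0 where both inputs had to reach 1 FPKM and 3 with a limit of 1.5-fold, and the count below was 1 with a pseudocount of 0.1 and 3 with the limit of 1.5-fold. The median ratio of 0.016 became -0.017 for genes of at least 1 FPKM in both inputs and -0.061 for genes that share under 10% of their 100-mers. The median of genes with a peak in both lists became -0.017 with every gene above 0 FPKM included. With an FPKM of at least 5, 9 genes remained of 33. With peaks of an FDR of at most 0.05, 4 genes had a peak in shNC (4 peaks), 5 in shY2-2 (5 peaks) and 3 in both, and 3 peaks of each list met the other list; at 0.001 each of these numbers was 2. With a fold enrichment of at least 4, they were 4, 5 and 3, and 3 peaks of each list met the other. GGACT in place of GGAC gave 20% and 7.14% of peaks. Counting peaks on both sides of the stem-loop gave 8 before it in shNC and 7 past it in shY2-2. Medians by class moved for H1, reported as 0.21 and lying between -0.35 and 0.44 over the alternatives, and for H4, reported as -0.28 and lying between -0.48 and 0.15, and those of H2A, H2B and H3 did not. The cause of these shifts was not tested. No paired analysis was possible because each condition had 1 library of each kind. For the same reason no replicate could be left out, and the depth behind low FPKM values and weak peaks is unknown.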

Other observations

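Of the 33 clustered histone genes under an FPKM of 1 in both inputs, 3 (9.09%) had a peak in at least 1 list, HIST1H2BE, HIST3H2BB and HIST1H2AE. Peaks in such low genes were found over the whole table too. In shNC, 11789 of all 28283 genes had a peak, 9967 of them among the 12268 genes kept. In shY2-2 the numbers were 11737 and 9614. In shY2-2, HIST2H2BE and HIST1H2BJ had the same fold enrichment of 4.39 and the same FDR of 0.0178, values given to 11 peaks of that list. HIST1H2BE shares exon sequence on the opposite strand with AL353759.1, which was at 0.40 FPKM in shNC and 0.14 FPKM in shY2-2, and HIST1H2BC with HFE, which was at 3.73 and 3.76 FPKM. Of the 66 clustered histone genes, 5 were listed at 0 in shNC and 2 in shY2-2, beside 3237 and 2649 of all 28283 genes.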
